A study of Physcomitrium patens with 6 samples.

Results

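The antioxidant and peroxidase genes of the moss Physcomitrella patens were taken from the gene ontology (GO) columns deposited with the tag counts. A gene model was a member when a term in any of the 6 libraries named an antioxidant, peroxidase or catalase activity, reactive oxygen or oxidative stress, and no term named photosynthesis, thylakoids, chlorophyll, protein kinase activity, transcription factor activity, glucose breakdown or the respiratory chain. The kinase exclusion was by that exact wording, so that members with a protein serine/threonine or histidine kinase term stayed in. One further gene model, PER1, was left out by the rule. This gave 117 members of 19265 gene models, in 110 of 18265 loci, where 12900 of all gene models carried a GO term. No expression value entered the choice. For the description the members were put into 3 classes by their terms. The 47 peroxidase-type members paired a peroxidase or antioxidant activity with iron binding, the 37 other antioxidant members had such an activity without iron binding, and the 33 response members had only a term for reactive oxygen or oxidative stress.

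Transcripts were counted as sequence tags (digital gene expression profiling) in 6 libraries, 1 per condition, each made from 3 pooled biological replicates of moss raised from protoplasts (cells freed of their wall). Whole gametophytes were sampled on day 3, day 14, day 24 and day 30 of protoplast culture, and laser capture gave chloronemal and caulonemal cells from protonemata of 14 days. By the study's account, day 3 held chloronemal filaments of few cells, day 14 filaments of both cell types, day 24 filaments with buds and day 30 leafy shoots together with protonema and rhizoids. The tissue label of days 3, 14 and 24 reads leafy shoot, the growth protocol and the paper give protonema, and the latter was followed. Captured cells were a mixture of dividing and resting cells.

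Reactive oxygen species such as superoxide and hydrogen peroxide arise in chloroplasts, mitochondria, peroxisomes and at the plasma membrane. Superoxide dismutases turn superoxide into hydrogen peroxide, and catalases and peroxidases remove it, many of them at the expense of ascorbate, glutathione or thioredoxin. In land plants a large family of secreted heme peroxidases works in the cell wall, where these enzymes can cross-link wall polymers or, by making oxygen radicals, loosen them. NADPH oxidases of the respiratory burst type make superoxide outside the cell and are known from tip-growing plant cells.

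Each transcript was represented by a tag of 21 bases that starts at a CATG site, so that 1 tag stood for 1 transcript and levels of different genes can be compared without division by length. The 117 members were counted through 156 distinct tags. For 81 members the tag was 1 and the same wherever the member was listed, and 36 members had more than 1. Of all member tags, 77.0% lay at the CATG site nearest to the 3′ end, against 60.5% over all genes. The tags below are those of the members on which the results turn, with the CATG in capitals and the rest in lower case, read 5′ to 3′ from the deposited files.
Pp1s75_107V6.1, leading member at day 3: CATGgtgggaagcaatcacga
Pp1s44_277V6.1, superoxide dismutase-like terms, leading member at day 14: CATGcaggagacctggggaat
Pp1s37_275V6.1, peroxidase-type, highest at day 3: CATGcaagcaacgttaaagac
Pp1s433_15V6.2, peroxidase-type, highest at day 14, tag from day 14 on and in captured cells: CATGaagtcatccgcagatac
Pp1s433_15V6.2, tag at day 3: CATGccccaatgctgagaaaa
Pp1s35_32V6.1, peroxidase-type, highest at day 14, tag at day 14: CATGgttacccttctcggagc
Pp1s35_32V6.1, tag at day 24 and in captured cells: CATGgacgccaaccttgtgaa
Pp1s20_77V6.1, peroxidase-type, highest at day 14: CATGtattcatcacagtaaaa
Pp1s219_8V6.1, peroxidase-type, highest at day 24: CATGagtttcttcaggaggta
Pp1s67_214V6.1, peroxidase-type, high at days 24 and 30: CATGtttgtattcataaggag
Pp1s104_177V6.1, peroxidase-type, highest at day 30: CATGcagaaagattgctttcc
Pp1s160_149V6.1, other antioxidant, highest at day 30: CATGgacctggaaattgcaag

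Where the authors' files took another CATG site in 2 libraries, as for Pp1s433_15V6.2 and Pp1s35_32V6.1, the 2 counts stand for different ends of the transcript. The part of this in the differences was not tested. Tags were matched with up to 1 mismatch, and the tags of 2 response members differed by a single base (G19A, counted from 1 at the 5′ end of the tag, which is the base shown in capitals here), so that reads of the 2 genes can be split between them and both are uncertain there. The tag shown for Pp1s42_156V6.1 was the one counted at days 3 and 14, and the other libraries took another CATG site.
Pp1s31_392V6.1: catgaagaatcctatggtGat
Pp1s42_156V6.1: catgaagaatcctatggtAat

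The libraries held 6188001, 7027742, 5857712 and 2281272 gene tags for days 3, 14, 24 and 30, 1733082 for chloronema and 2557991 for caulonema. Levels are given as normalized TPM, the tags per 1000000 after the library sizes were scaled by TMM, a method that assumes most genes to be equal. Since each condition had 1 library, no spread between replicates could be measured, and intervals cover counting error only, as PCR copies are not independent molecules. A gene was called different between 2 libraries when it had over 100 tags in at least 1 of them, a ratio over 2-fold and an adjusted p under 0.001 (exact two-sided binomial test, Benjamini-Hochberg over all genes tested). The test compares the libraries, not the conditions. In whole plants, fewer cells of a type and less RNA per cell cannot be told apart. As a check of the captured tissues, 57 photosystem genes summed to 26832 normalized TPM in the chloronemal and 21429 in the caulonemal library, and to 8460, 37492, 20257 and 21765 in those of days 3, 14, 24 and 30. The whole day 14 library lay above both captured ones. The order of the captured tissues depends on the scaling. With the TPM the authors deposited, the median log2 ratio of all genes in caulonema against chloronema moved from 0.13 to 0.88, more than this difference.

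The members took the largest share of all gene tags at day 3 and the smallest in the day 30 and chloronemal libraries. Together they took 2.08% of gene tags at day 3, 1.20% at day 14, 1.17% at day 24, 0.605% at day 30, 0.565% in chloronema and 0.799% in caulonema. The makeup changed with it. At day 3 the other antioxidant members summed to 16396 normalized TPM and the peroxidase-type members to 4518. At day 24 the order was the other way round, with 3639 for the other antioxidant and 6346 for the peroxidase-type members. The change of order rested on the 2 leading other antioxidant members. Without them this class summed to 2745, 2946, 1805 and 1648 at days 3, 14, 24 and 30, less than the peroxidase-type members at each day. The response members stayed between 1133 in chloronema and 1773 at day 24.

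**Figure D1:**
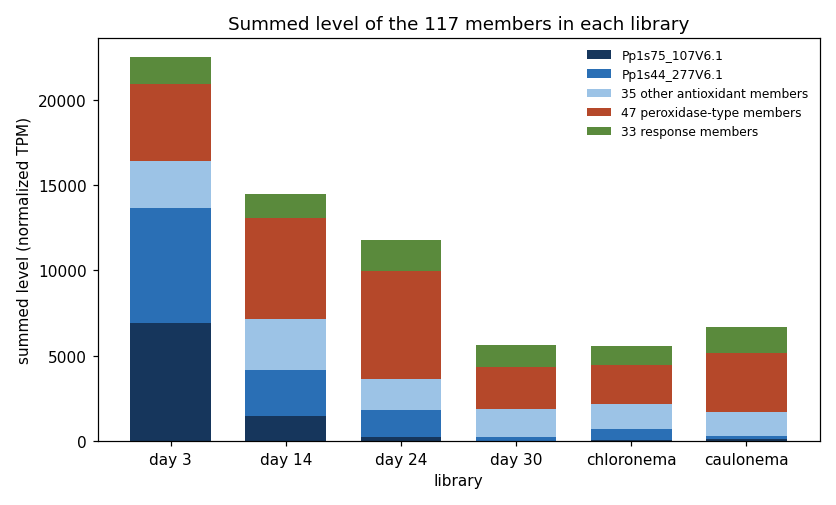
Summed level of the members in each library in normalized TPM, 1 bar per library, stacked by the 2 most abundant members, the 35 remaining other antioxidant members, the 47 peroxidase-type members and the 33 response members. The 2 leading members made up 60.7% of the bar at day 3 and shrank at each later day, while the peroxidase-type part was tallest at days 14 and 24.

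A pair of genes carried most of the day 3 level. Pp1s75_107V6.1, annotated with peroxidase activity, a transferase activity for alkyl or aryl groups and toxin metabolism, the terms that glutathione transferases commonly carry, had 6896 normalized TPM at day 3, 1449 at day 14, 226 at day 24, 14.7 at day 30, 47.3 in chloronema and 99.6 in caulonema. It was 4.76-fold lower at day 14 than at day 3 (95% interval 4.65 to 4.87), 6.41-fold lower at day 24 than at day 14 (6.05 to 6.80) and 15.4-fold lower at day 30 than at day 24 (11.1 to 22.1). Its level thus fell at every stage. Pp1s44_277V6.1, whose terms of antioxidant activity, cation binding and reactive oxygen metabolism it shares with the copper/zinc superoxide dismutase CSD2, had 6754 normalized TPM at day 3, 2733 at day 14, 1608 at day 24, 188 at day 30, 669 in chloronema and 187 in caulonema. It was 2.47-fold lower at day 14 than at day 3 (2.43 to 2.52) and 8.55-fold lower at day 30 than at day 24 (7.79 to 9.41). Without these 2 genes the members summed to 8856, 10300, 9924 and 5417 normalized TPM at days 3, 14, 24 and 30, so that the day 3 library no longer led.

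Of the 117 members, 67 had over 100 tags in at least 1 library, 23 peroxidase-type, 25 other antioxidant and 19 response members. The other 50 could be tested in no comparison. They were 24 peroxidase-type members with at most 93 tags in any library, 12 other antioxidant members with at most 79 and 14 response members with at most 100, and 22 of the 50 stayed under 10 tags everywhere. Among them was Pp1s241_44V6.1, which matched a gp91phox respiratory burst oxidase-like protein and had 5 tags at day 30, 2 in caulonema and none listed elsewhere. Over all 117, 62 were listed in all 6 libraries and 17 in only 1. Of the 67, 21 had their highest level at day 3, 15 at day 14, 10 at day 24, 13 at day 30, 2 in chloronema and 6 in caulonema. The classes differed in this: 12 of 25 other antioxidant members were highest at day 3 and 8 at day 14, while 11 of 19 response members were highest at day 24 or 30, and the 23 peroxidase-type members were spread with 5, 7, 3 and 5 over days 3, 14, 24 and 30 and 3 in caulonema.

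**Figure D2:**
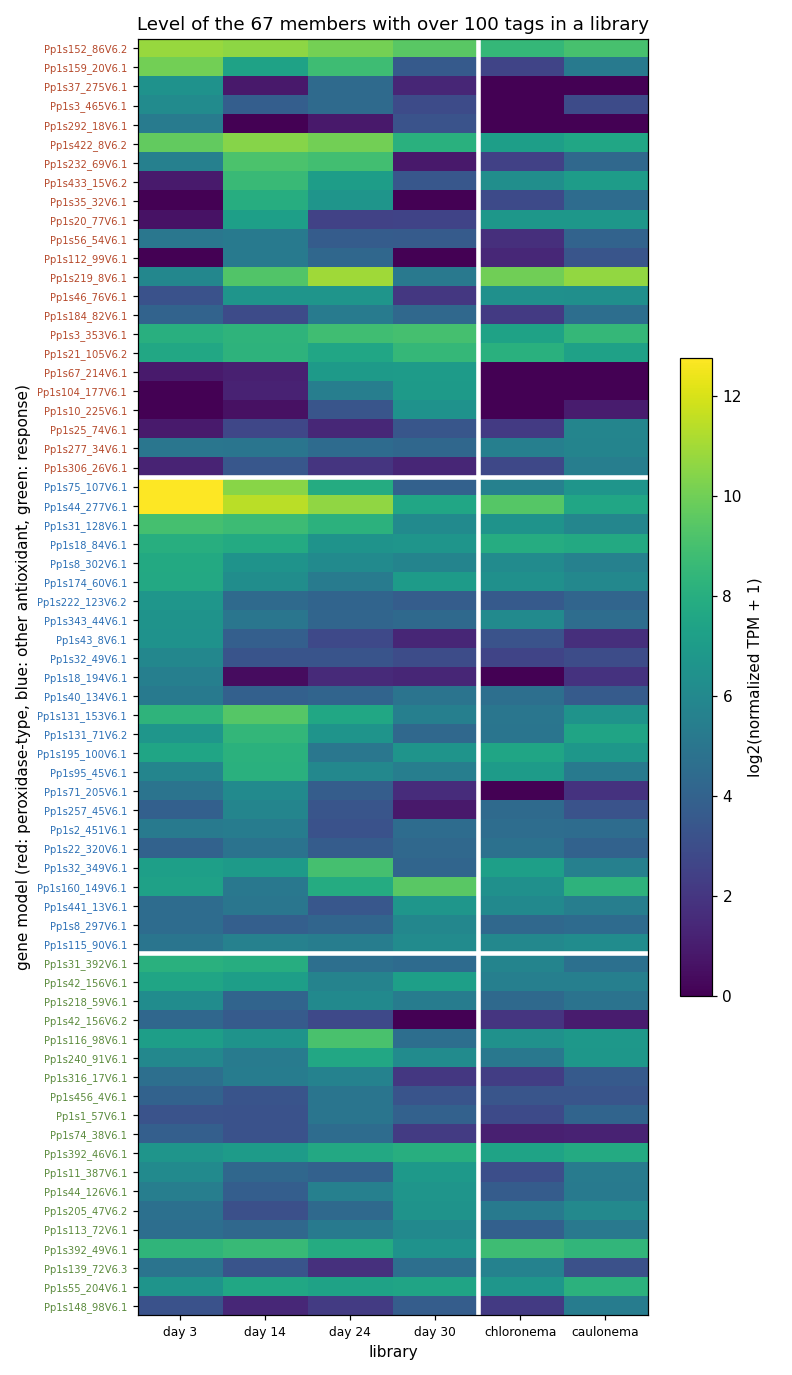
Level of each of the 67 members with over 100 tags in a library, as log2(normalized TPM + 1), with gene models in rows, ordered within each class by the library of the highest level, and libraries in columns. The other antioxidant block is brightest at days 3 and 14, and the peroxidase-type block holds rows that go from dark to bright within 1 stage.

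How far a member ranged over the 6 libraries is given only as a description, since a gene that passed 100 tags only where it was high had to range widely. Of the 15 peroxidase-type genes over 100 tags that were listed in all libraries, the median ratio of the highest to the lowest level was 30.4, against 8.91 for 23 other antioxidant members, 7.14 for 18 response members and 6.64 for 8293 genes of all kinds. At least 10-fold, or with a library in which they were not listed, ranged 18 of 23 peroxidase-type (78.3%), 12 of 25 other antioxidant (48.0%) and 9 of 19 response members (47.4%), where 39.1% of all 9003 genes over 100 tags did so. The rule and the class use no values, but the split made next was chosen after the values were seen and is a description. Peroxidase-type members annotated with the general term antioxidant activity (38, of which 16 had over 100 tags) all ranged at least 10-fold or were not listed in a library. Those annotated with the term peroxidase activity (9, of which 7 had over 100 tags) ranged so in 2 cases, and the median range of the 5 listed in all libraries was 3.14-fold.

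**Figure D3:**
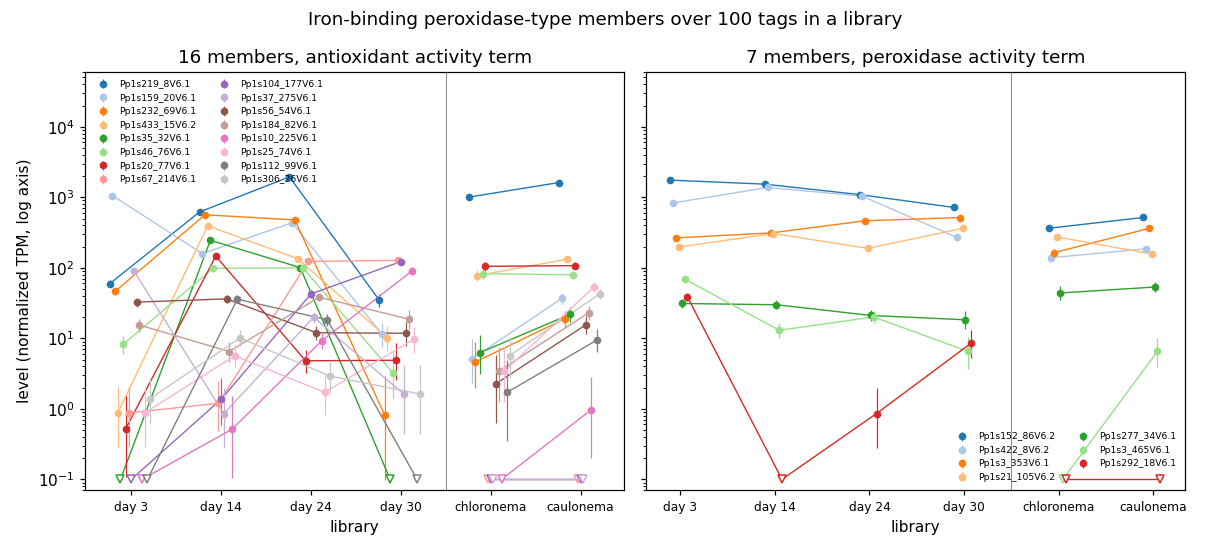
Level in normalized TPM on a log axis of the 16 peroxidase-type members with the antioxidant activity term (left) and the 7 with the peroxidase activity term (right) in the 6 libraries, with 95% Poisson intervals as bars. Open triangles at the foot mark libraries in which a gene was not listed, lines join the 4 days and the 2 captured tissues, and the lines on the left cross far more than those on the right.

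The 9 genes with the peroxidase activity term summed to 3188, 3572, 2825 and 1912 normalized TPM over days 3 to 30, and the 38 with the antioxidant activity term to 1329, 2361, 3522 and 569, and in chloronema the sums were 984 and 1330, in caulonema 1281 and 2205. The 9 genes had the higher sum at days 3, 14 and 30, and the 38 had it at day 24 and in both captured tissues. The lead of the 38 rested on Pp1s219_8V6.1, and without it the 9 genes had the higher sum in every library. That gene alone held 30.6% of the summed level of all peroxidase-type members at day 24, 43.5% in chloronema and 46.4% in caulonema. Pp1s152_86V6.2, with terms for iron binding, peroxidase activity and hydrogen peroxide metabolism, had 1750 normalized TPM at day 3, 1534 at day 14, 1092 at day 24, 717 at day 30, 363 in chloronema and 517 in caulonema, and no step between neighboring days passed the 2-fold limit. Pp1s3_353V6.1, with the same activity terms, had 265, 312, 464 and 516 normalized TPM over days 3 to 30, 164 in chloronema and 361 in caulonema. Pp1s21_105V6.2 was among the most even of all members, with 197, 306, 188 and 362 over the same days, 273 in chloronema and 157 in caulonema, a range of 2.30-fold. Calls were made for 4 of the 7 genes over 100 tags, among them Pp1s422_8V6.2, with 832, 1377 and 1035 normalized TPM at days 3, 14 and 24 and 270 at day 30, a 3.84-fold drop at the last step (3.54 to 4.16). The other 2 genes of the 3 most even ones were Pp1s115_90V6.1 (peroxidase and glycosyl hydrolase terms), between 30.0 and 73.9 normalized TPM, and the response gene Pp1s392_46V6.1, between 97.9 and 258.

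From day 3 to day 14, when regenerated filaments grew into plants with both filament types, 7 of 17 peroxidase-type genes tested were higher, 4 lower and 6 not called, while 5 of 25 other antioxidant genes were higher, 11 lower and 9 not called. The 15 response genes gave 1 higher, 5 lower and 9 not called, and the higher one, Pp1s55_204V6.1 (2.02-fold, 1.82 to 2.24), was not called under any of the 3 other scalings. Over all members 13 of 57 tested were called higher and 20 lower, where the background over all 7710 genes tested was 20.1% called higher, 20.3% called lower and 40.4% called in either direction. The members' shares were 22.8% higher and 35.1% lower. Their median log2 ratio was -0.20, against 0.07 over all genes. The largest adjusted p among the 33 calls was 1.31e-13 (exact binomial test, Benjamini-Hochberg).

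The peroxidase-type genes with the largest rise were close to or under detection at day 3. Pp1s35_32V6.1 was not listed at day 3 and had 245 normalized TPM at day 14, at least 467-fold higher with day 3 set at 3 tags. Pp1s433_15V6.2 went from 0.876 to 395 normalized TPM, 451-fold higher (193 to 1390), with its 5 tags of day 3 at another CATG site. Pp1s20_77V6.1 rose from 0.526 to 146, 278-fold (94.9 to 1352, on 3 tags at day 3). Pp1s112_99V6.1, which the study's annotation names a peroxidase superfamily protein, was likewise unlisted at day 3 and had 35.9 normalized TPM at day 14, at least 68.4-fold higher. Pp1s232_69V6.1 rose 12.2-fold (10.8 to 13.9), Pp1s46_76V6.1 11.9-fold (8.85 to 16.4) and Pp1s219_8V6.1 10.4-fold (9.29 to 11.6). All 7 carried the antioxidant activity term, and 10 members with that term were tested. Genes with few or no tags at day 3 could enter the test only through a high day 14 level. Nothing about the term is therefore read from this count or from the size of the rises.

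Other peroxidase-type genes were shed over the same interval. Pp1s292_18V6.1 had 38.7 normalized TPM at day 3 and was not listed at day 14, at least 75.4-fold lower. Pp1s37_275V6.1 fell from 89.3 to 0.855, 104-fold (44.5 to 323). Pp1s159_20V6.1, named ALPHA DOX2 after the fatty acid alpha-dioxygenase, a heme enzyme that oxidizes fatty acids, went from 1057 to 159 normalized TPM, 6.64-fold lower (6.19 to 7.12). Of the other antioxidant genes, Pp1s18_194V6.1, with terms for NADH or NADPH oxidation, fell from 43.6 to 0.342 normalized TPM (127-fold, 34.9 to 1058, on 2 tags at day 14 at another CATG site). Pp1s32_49V6.1, with the same terms, fell 6.64-fold (4.94 to 9.07). Of 4 members with these terms only these 2 could be tested, too few to read as a trait of the group. Among all genes tested, 20.3% were called lower.

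Superoxide dismutase-like genes went both ways. In all, 10 members had antioxidant activity and cation binding terms and are called superoxide dismutase-like here after CSD2. The grouping was made after the values were seen and did not ask for a superoxide or reactive oxygen term. Of the 8 tested, 2 were higher, 2 lower and 4 not called at day 14. CSD2 (Pp1s131_71V6.2) had 105 normalized TPM at day 3 and 352 at day 14, 3.36-fold higher (3.07 to 3.69). Pp1s131_153V6.1 rose 2.15-fold (2.03 to 2.28), while Pp1s174_60V6.1 was 2.72-fold lower (2.43 to 3.04). Summed without Pp1s44_277V6.1, the group had 948 normalized TPM at day 3 and 1422 at day 14.

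From day 14 to day 24, when buds formed, the classes parted further: 11 of 20 other antioxidant genes tested were lower, 2 higher and 7 not called, while 8 of 16 response genes were higher, 2 lower and 6 not called. The 19 peroxidase-type genes gave 6 higher, 4 lower and 9 not called. All members together gave 16 higher and 17 lower of 55 (29.1% and 30.9%), with a background of 23.2% called higher, 26.4% called lower and 49.5% called in either direction among 7913 genes. The median log2 ratio was -1.26 for the other antioxidant, -0.24 for the peroxidase-type (0.02 with total gene tags) and 1.15 for the response genes, against -0.06 over all genes. The largest adjusted p among the 33 calls was 4.72e-08 (exact binomial test, Benjamini-Hochberg), and 5 of them rest on different CATG sites at the 2 days.

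Of the 8 superoxide dismutase-like genes tested, 6 were lower at day 24, none was called higher, and all 8 had ratios under 1. Over all genes tested 26.4% were called lower. The 6 are among the 11 other antioxidant genes called lower, and the group was formed after the values were seen. CSD2 was 3.70-fold lower (3.37 to 4.07), with its day 24 tag at another CATG site, and Pp1s131_153V6.1, with 662 normalized TPM at day 14 and 194 at day 24, was 3.41-fold lower (3.19 to 3.65). Pp1s195_100V6.1, annotated only with antioxidant activity, dropped from 281 to 32.4 normalized TPM, 8.66-fold (7.44 to 10.1). Pp1s95_45V6.1, an oxidoreductase of the kind that acts on paired donors with oxygen, had risen 4.86-fold at day 14 (4.31 to 5.51) and was 4.48-fold lower at day 24 (3.98 to 5.04). It was thus high at day 14 alone among the 4 days.

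The genes that were higher at day 24 included peroxidase-type genes that had been nearly undetected at day 14. Such genes could enter the test only through a high day 24 level, so that nothing is read from the size of their rises. Pp1s67_214V6.1 went from 1.20 to 123 normalized TPM, 103-fold higher (49.6 to 257). Pp1s104_177V6.1, a peroxidase superfamily protein by the study's annotation, went from 1.37 to 42.7, 31.2-fold (15.6 to 73.1), and Pp1s37_275V6.1 returned from 0.855 to 19.9, 23.3-fold (9.68 to 73.0). Neither Pp1s67_214V6.1 nor Pp1s104_177V6.1 was listed in the captured chloronemal or caulonemal cells. Those cells were of day 14, when both genes were near the floor in whole plants as well. Pp1s219_8V6.1 had its highest level at day 24, with 1944 normalized TPM after 59.6 at day 3 and 619 at day 14, and was then the most abundant member of all. In the opposite direction Pp1s20_77V6.1 fell from 146 to 4.80 normalized TPM, 30.5-fold (20.9 to 46.1).

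Kinases stood among the response genes that rose. Among the members, 4 carried a serine/threonine kinase term with hormone signaling, and 3 of these 4 were higher at day 24 (all 4 with total gene tags or the deposited TPM). Over all genes tested 23.2% were called higher, and 4 genes are too few to read as a trait of the group. The kinase named OST1 (Pp1s116_98V6.1), after the Arabidopsis kinase of abscisic acid signaling in guard cells, had 142 normalized TPM at day 3, 94.1 at day 14, 537 at day 24, 23.6 at day 30, 87.3 in chloronema and 110 in caulonema, 5.71-fold higher at day 24 than at day 14 (5.21 to 6.26). Pp1s240_91V6.1 rose 5.08-fold (4.41 to 5.88) and Pp1s218_59V6.1 3.95-fold (3.15 to 4.99). A further 3 members matched a cytokinin receptor AtCKI2-like protein, of which Pp1s1_57V6.1 alone had over 100 tags and rose 3.58-fold (2.59 to 5.02). The lower response genes were the 2 whose tags differed by 1 base at day 14, Pp1s31_392V6.1, which fell 10.03-fold (8.43 to 12.0), and Pp1s42_156V6.1, which fell 2.72-fold (2.38 to 3.12) with its day 24 tag at another CATG site. Pp1s160_149V6.1, annotated only with antioxidant activity, was the other antioxidant gene with the largest rise, from 33.9 to 227 normalized TPM, 6.71-fold (5.77 to 7.83).

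From day 24 to day 30, when leafy shoots had grown, 11 of 18 peroxidase-type genes tested were lower, 2 higher and 5 not called. Their median log2 ratio was -1.76. The other antioxidant genes gave 5 higher, 6 lower and 4 not called of 15, and the response genes 4 higher, 7 lower and 5 not called of 16. Over all members 11 of 49 were higher and 24 lower (22.4% and 48.98%), with a background among 7267 genes of 23.2% called higher, 39.3% called lower and 62.4% called in either direction. The median log2 ratio was -0.70 for the members and -0.47 for all genes. The largest adjusted p among the 35 calls was 4.23e-05 (exact binomial test, Benjamini-Hochberg), and 7 calls rest on different CATG sites.

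The peroxidase-type genes that had appeared by day 14 were low or not listed at day 30. Pp1s232_69V6.1 had 46.2 normalized TPM at day 3, 565 at day 14, 477 at day 24 and 0.814 at day 30, a 586-fold drop at the last step (162 to 4838, on 2 tags at day 30). Pp1s35_32V6.1 and Pp1s112_99V6.1 were not listed at day 30, at least 82.4-fold and at least 15.03-fold lower. Pp1s219_8V6.1 fell 56.2-fold (45.4 to 70.4), Pp1s46_76V6.1 30.6-fold (15.4 to 71.2) and Pp1s433_15V6.2 13.2-fold (8.90 to 20.6). With the antioxidant activity term, 9 of 12 genes tested were lower, 2 higher and 1 not called, and with the peroxidase activity term 2 of 6 were lower, none was called higher (1 with total gene tags or DESeq2 size factors) and 4 were not called. Genes near the floor at day 30 could enter this test only through their day 24 level, so that nothing about the terms is read from these counts. ALPHA DOX2 went from 435 to 11.4 normalized TPM, 38.2-fold lower (26.4 to 57.6) at different CATG sites.

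The day 30 library had Spearman correlations over all genes of 0.656 to 0.743 with the other 5 libraries, where those of days 3, 14 and 24 correlated with each other at 0.807 to 0.858, and it was 1 of the 3 shallow libraries along with the captured ones. Several of the genes low at day 30 were low in the captured cells as well, for instance Pp1s232_69V6.1 with 4.56 normalized TPM in chloronema and 18.9 in caulonema although its day 14 level was 565. Of the 44 members with over 100 tags at day 14, 19 (43.2%) had under 0.5 times that level in each captured library, against 27.9% of 6461 genes. Of the 24 members called lower at day 30, 13 (54.2%) had also been that much lower in each captured library than at day 14, against 45.3% of the 2854 genes called lower. Several members, among them ALPHA DOX2, Pp1s32_349V6.1 and Pp1s392_49V6.1, were counted at the same CATG site at day 30 and in both captured libraries. At days 3, 14 and 24 their tags lay at other sites. The parts that the CATG site and library preparation had in the lower values of day 30 and the captured libraries were not tested. Without the day 30 library, 50 members were called in at least 1 developmental comparison, against 56 with it, where leaving out a comparison can only lower the count. The 56 were 83.6% of the 67 members over 100 tags, near the 81.7% of all 9003 such genes.

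A smaller set was highest in leafy shoots. Pp1s160_149V6.1 had 157, 33.9, 227 and 725 normalized TPM over days 3 to 30, 82.7 in chloronema and 305 in caulonema, and rose 3.19-fold at the last step (2.97 to 3.43), to become the most abundant member at day 30. Pp1s104_177V6.1 rose further, 2.87-fold (2.42 to 3.41) to 122 normalized TPM, and Pp1s67_214V6.1 kept 127 normalized TPM after 123. Pp1s10_225V6.1, a peroxidase family protein by the study's annotation, was unlisted at day 3 and had 0.513, 9.26 and 89.5 normalized TPM at days 14, 24 and 30, a 9.67-fold rise at the last step (7.15 to 13.3). These 3 peroxidase-type genes had their high levels at the bud and leafy shoot stages and at most 3 tags in any captured library. The captured cells were of day 14, when the deeper whole-plant library also held few tags (8 for Pp1s104_177V6.1 and 3 for Pp1s10_225V6.1). The captured libraries therefore cannot show whether filaments of later days lacked them.

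Among the remaining genes higher at day 30, Pp1s441_13V6.1, with superoxide dismutase-like terms and a cation transport term, rose 10.5-fold (7.88 to 14.2) to 105 normalized TPM, its day 24 and day 30 tags lying at different CATG sites. SBP2 (Pp1s11_387V6.1), a selenium-binding protein, had 67.6, 17.96, 14.6 and 114 normalized TPM over days 3 to 30, 7.41 in chloronema and 39.0 in caulonema, and rose 7.85-fold at the last step (6.14 to 10.1). Pp1s205_47V6.2, with ubiquitin-type ligase and senescence terms, rose 4.75-fold (3.77 to 5.997). OST1 fell 22.8-fold (17.6 to 30.0) from its day 24 maximum.

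**Figure D4:**
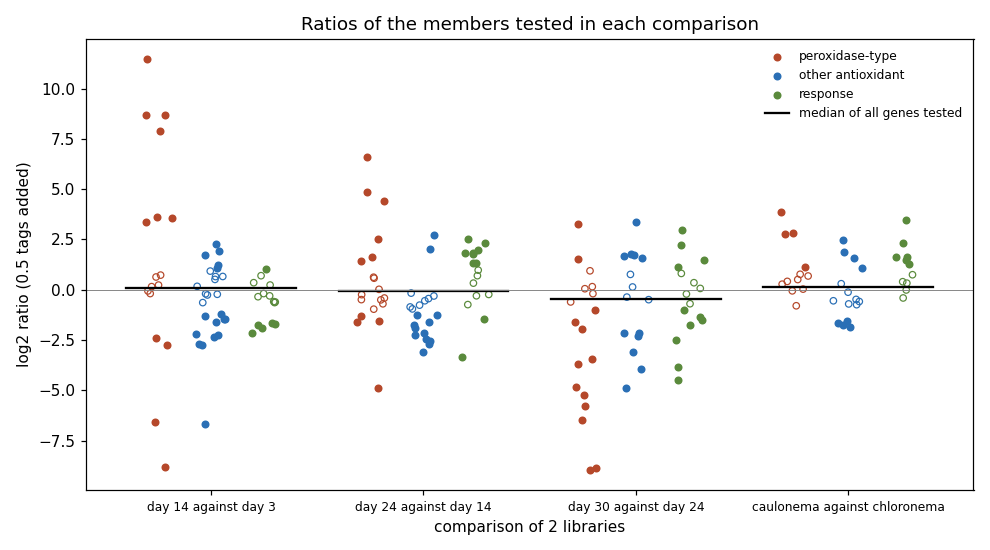
The log2 ratio (0.5 tags added) of every member tested in each of the 4 comparisons, colored by class, with filled points for called members, open points for the rest and a black line at the median of all genes tested. The peroxidase-type points spread over the widest range in the 3 developmental comparisons, and in caulonema against chloronema 14 filled points lie above 0 and 4 below it.

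Captured caulonemal cells, the long filament cells with fewer chloroplasts, had higher levels than captured chloronemal cells for 14 of 38 members tested and lower levels for 4, with 20 not called (36.8% and 10.5%). The background among 4292 genes was 21.8% called higher, 16.5% called lower and 38.4% called in either direction. By class, 4 of 12 peroxidase-type, 4 of 15 other antioxidant and 6 of 11 response genes were higher in caulonema, and all 4 lower ones were other antioxidant genes. The largest adjusted p among the 18 calls was 3.23e-05 (exact binomial test, Benjamini-Hochberg). The split depended on the scaling: with the deposited TPM 23 members were higher and 1 lower, and the median of all genes moved from 0.13 to 0.88 on the log2 scale, so that directions here are relative to the bulk of genes.

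Of the 4 peroxidase-type genes higher in caulonema, 2 had low levels at all days. Pp1s25_74V6.1 had 3.42 normalized TPM in chloronema and 54.0 in caulonema, 15.8-fold higher (7.10 to 43.6), and at most 9.77 at any day. Pp1s306_26V6.1 had 5.70 and 42.6, 7.48-fold higher (3.94 to 16.0), and at most 10.1 at any day. The tags of Pp1s306_26V6.1 at days 3, 14 and 24, and of Pp1s25_74V6.1 at day 3, lay at another CATG site than in the captured cells. ALPHA DOX2 was 7.16-fold higher in caulonema (3.64 to 16.1, on 9 tags in chloronema), and Pp1s3_353V6.1 was 2.20-fold higher (1.93 to 2.51). Of the abundant peroxidase-type genes, Pp1s219_8V6.1 had 1008 normalized TPM in chloronema and 1619 in caulonema, a ratio of 1.61 (1.52 to 1.70), below the 2-fold limit. It was the most abundant member in both captured tissues. Pp1s20_77V6.1 had 105 and 107.4, a ratio of 1.02 (0.852 to 1.23).

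Superoxide dismutase-like genes were split between the filament types. CSD2 had 30.2 normalized TPM in chloronema and 171 in caulonema, 5.65-fold higher (4.26 to 7.65), and Pp1s131_153V6.1 was 3.02-fold higher (2.25 to 4.12). Pp1s44_277V6.1 went the other way, 3.57-fold lower in caulonema (3.23 to 3.95), and it alone of the 4 lower members was still called with the deposited TPM. The remaining 3 were Pp1s95_45V6.1, 3.35-fold lower (2.67 to 4.24), Pp1s32_349V6.1, 3.18-fold lower (2.58 to 3.94), and Pp1s343_44V6.1, 2.93-fold lower (2.16 to 4.00), all 3 with antioxidant, oxidoreductase and cell homeostasis terms. Pp1s160_149V6.1 was 3.68-fold higher in caulonema (3.09 to 4.42).

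Response genes higher in caulonema included UPL5 (Pp1s148_98V6.1), a ubiquitin-protein ligase, with 3.42 normalized TPM in chloronema and 40.4 in caulonema, 11.8-fold higher (5.27 to 32.8). With few tags in chloronema, UPL5 and SBP2 could enter this comparison only through their caulonemal level. SBP2 was 5.27-fold higher (2.97 to 10.2), and Pp1s55_204V6.1, with inositol phosphate synthesis and lyase terms, 2.82-fold higher (2.40 to 3.32). The neighbors by identifier, Pp1s392_46V6.1 and Pp1s392_49V6.1, both abundant response genes with terms for oxidative stress and other organisms, had 169 and 445 normalized TPM in chloronema and 224 and 335 in caulonema, with neither called. Over the days, Pp1s392_46V6.1 had 97.9, 125, 203 and 258, while Pp1s392_49V6.1 had 328, 386, 231 and 89.1. The first was thus highest and the second lowest at day 30, but Pp1s392_49V6.1 was counted at 3 different CATG sites over the days (1 for days 3 and 14, another for day 24 and yet another for day 30), so that its levels are not of 1 tag.

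Genes outside the members, in 4 lists taken by the wording of their GO terms alone, were set beside the members. The list for wall phenolics thus also held genes with transporter or transcription factor terms. Pp1s116_56V6.3 and Pp1s13_127V6.2 stood in both the glutathione and the thiol redox list. Their counts are read against the shares of all genes called, 40.4% at day 14, 49.5% at day 24, 62.4% at day 30 and 38.4% in caulonema. Of 13 glutathione genes, 4 were higher and 4 lower of 10 tested at day 14 against day 3, none was called higher and 5 lower of 9 at day 24 against day 14, none higher and 3 lower of 6 at day 30 against day 24, and 1 higher and 3 lower of 7 in caulonema against chloronema. The glutathione gene with the largest drop over the days was Pp1s471_23V6.1, with 1791, 643, 338 and 2 tags at days 3, 14, 24 and 30. Of 40 thiol redox genes, 10 were higher and 5 lower of 28, then 4 and 7 of 26, 7 and 9 of 25, and in the captured tissues none higher and 7 lower of 20. The shares called were 53.6%, 42.3%, 64.0% and 35.0%.

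Of 16 ascorbate genes, 1 was higher and 1 lower of 7 at day 14, 2 and 4 of 7 at day 24, 3 and 2 of 6 at day 30, and none was called of 3 in the captured tissues. Of 20 genes in the list for wall phenolics (lignin or phenylpropanoid terms), 1 was higher and 1 lower of 11 at day 14, 2 and 5 of 10 at day 24, 2 and 2 of 8 at day 30 and 2 and 2 of 8 in caulonema. So few genes were tested in these lists that nothing is read from their shares. Over the 3 developmental comparisons, 22 members (32.8% of the 67) were called in exactly 1, 23 (34.3%) in 2 and 11 (16.4%) in all 3, against 43.3%, 30.0% and 8.36% of all 9003 genes over 100 tags. With the captured tissues 61 of the 67 (91.0%) were called at least once, against 85.2% of all genes.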

How the data were processed

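Tag counts per gene model came from 6 libraries, 1 for each of 4 days and 2 captured tissues. The authors removed adaptor-only, ambiguous and single-copy tags, matched tags of 21 bases to Phytozome gene models with at most 1 mismatch and dropped tags with several matches (blastn by the paper, Bowtie by the submitters' processing notes, with versions not given in the sources used here). Counts were used as deposited, and the deposited TPM, which the authors scaled to library size, only as an alternative. The smallest listed count was 2. An unlisted gene was set at 3 tags for a bound. Libraries were scaled by TMM in edgeR 4.0.16 (R 4.3.3), and 2 libraries were compared per gene by an exact binomial test (scipy 1.17.1), Benjamini-Hochberg adjusted over every gene tested, after the test was tried on simulated data. With 1 library per condition, edgeR's quasi-likelihood test could not be fitted. Ratio intervals are exact binomial and level intervals exact Poisson at 95%.

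Members, lists and rules were chosen with earlier results of these data known. Named were, per comparison, the 4 highest and 4 lowest ratios among called members by the interval bound nearest 1, the 3 most abundant per class, members with an enzyme name, and the 3 most even over 100 tags in all libraries. Further genes named beside these were chosen after their values were seen. GO terms were joined over the 6 libraries. Of the identifiers, 0 matched the RefSeq table of assembly ASM5946719v1, so no coordinates are given. Alternatives were other scalings, filters and thresholds, an edgeR exact test with an assumed coefficient of variation, equal tag positions, and, added after seeing the data, leaving out day 30.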

Additional observations from a re-analysis of the deposited data

How the results depend on the processing

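No paired analysis was possible because each condition had 1 library, and no replicate could be left out for the same reason. For the 73 called differences of named members, 3 other scalings gave 219 values, of which 210 stayed called in the same direction, 9 were no longer called and none reversed. The 9 were Pp1s55_204V6.1 at day 14 under all 3 scalings, Pp1s1_57V6.1 at day 30 under 2, Pp1s75_107V6.1 in caulonema with DESeq2 size factors, and Pp1s32_349V6.1, Pp1s343_44V6.1 and Pp1s95_45V6.1 in caulonema with the deposited TPM. A scaling moves all ratios of a comparison by 1 common factor, here below the 2-fold limit, so that no call could reverse. Many of the genes were picked for their extreme ratios and could hardly lose their call. The count therefore says little about how firm the calls are. A limit of 4-fold left 19, 16, 21 and 6 members called at day 14, 24 and 30 and in caulonema, in place of 33, 33, 35 and 18. Over all genes it left 1142, 1378, 2694 and 429, in place of 3112, 3920, 4537 and 1646. If a coefficient of variation of 0.2 was assumed, edgeR's exact test called 9 members in caulonema, and 603 of all genes. At 0.4 it called 7, 3 and 9 members in the developmental comparisons, and 0 in caulonema, where 9 of 38 had an unadjusted p under 0.05. Over all genes it called 274, 123, 763 and 10 at 0.4. Without the filter on low counts 53 members were called at day 30, 24 higher and 29 lower, that is 45.3% higher in place of 31.4%. Over all genes 7536 were called without that filter. The members' median log2 ratio moved from -0.20 to -0.30 with the deposited TPM and -0.35 with total gene tags at day 14, from -0.41 to -0.15 with total gene tags and -0.24 with no filter at day 24, from -0.70 to -0.58 with total gene tags, -0.54 with DESeq2 size factors and -0.37 with no filter at day 30, and from 0.41 to 0.66 with total gene tags, 1.17 with the deposited TPM and 0.76 with no filter in caulonema. At day 14 and 24 and in caulonema, total gene tags moved the median of all genes to -0.08, 0.20 and 0.37. The causes were not tested. Counting only genes with the same CATG site in both libraries gave 27, 28, 26 and 18 calls, and 2791, 3081, 3462 and 1525 over all genes. Depth limits the day 30 and captured libraries, where 28, 24 and 37 members had over 100 tags at day 30, in chloronema and in caulonema, against 50 at day 3.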
